A study of Mus musculus with 6 samples.

Results

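The interferon-inducible p200 family was followed across 3 stable lines of B16-F1, a mouse melanoma cell line of C57BL/6J origin, with 2 arrays a line. Every line stably expressed a short hairpin RNA (shRNA) from a lentivirus: a control hairpin in the first line, one against macroH2A1 in the second and one against macroH2A2 in the third, so the comparisons ask how family transcripts differed when either macroH2A histone variant was targeted. No line without a hairpin was among the samples, and the labels do not say whether a line came from 1 clone. The family members were taken as all probe sets annotated to the single symbols Mndal, Ifi203, Ifi204, Ifi205 or Aim2. They were chosen by measured values, because Mndal was low in both macroH2A shRNA lines against the control line, so the members' differences from the control are given as a description with no test. Of the 5 symbols, 4 had a probe set of their own, of 18193 gene symbols on the array. They gave 5 member probe sets of 45037 (64 control probe sets left out). Ifi205 had none. A further 5 probe sets were annotated to several genes with a member among them, and 7 belonged to other p200 genes. They are shown because family transcripts are alike in sequence and can hybridise to one another's probes.

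The p200 proteins, also called HIN-200 or AIM2-like receptors, carry a HIN domain that binds DNA, in most of them together with a pyrin domain that binds other proteins. Their genes lie in 1 cluster on mouse chromosome 1, differ in number between mouse strains and are classical targets of type I and type II interferon. AIM2 recognises DNA in the cytosol and assembles an inflammasome, IFI204 and its relatives are linked to sensing of DNA through STING, and MNDAL and IFI203 are mainly nuclear proteins linked to cell growth and transcription.

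In the RefSeq gene table (GRCm38.p6) the cluster ran through 13 genes in the order Aim2, Ifi206, Ifi214, Ifi213, Ifi209, Ifi208, Ifi207, Ifi204, Mndal, Ifi211, Ifi203, Ifi202b and Ifi205, with the pseudogene Ifi203-ps between Ifi204 and Mndal. The table also lists Mndal among the older names of Ifi203, and no source used here gives the genome build behind the array annotation. The RefSeq sequence before the start of Mndal is shown because the results turn on Mndal. The 250 bases before the start of the second of its 2 windows lie on the minus strand at chr1:173880188-173880437 (GRCm38.p6), with an interferon response element core in capitals. The searched core was GAAANNGAAA, read on both strands (TTTCNNTTTC on the other).
Mndal: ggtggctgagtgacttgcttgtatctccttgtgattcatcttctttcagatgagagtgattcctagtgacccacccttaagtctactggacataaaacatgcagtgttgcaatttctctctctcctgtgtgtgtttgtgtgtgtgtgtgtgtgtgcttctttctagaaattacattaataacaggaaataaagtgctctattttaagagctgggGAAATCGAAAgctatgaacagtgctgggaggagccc

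The stretch around the core is set beside that of Ifi203, Ifi211 and Ifi205 to show how closely the family's promoters resemble each other. All lie on the minus strand of GRCm38.p6, at chr1:173880189-173880253 for Mndal, chr1:173942493-173942557 for Ifi203, chr1:173913049-173913113 for Ifi211 and chr1:174031855-174031919 for Ifi205. Capitals again mark the core.
Mndal: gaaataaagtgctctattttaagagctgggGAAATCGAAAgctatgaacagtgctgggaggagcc
Ifi203: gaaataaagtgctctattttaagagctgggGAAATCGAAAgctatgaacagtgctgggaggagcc
Ifi211: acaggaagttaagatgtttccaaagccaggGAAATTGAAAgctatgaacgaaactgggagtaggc
Ifi205: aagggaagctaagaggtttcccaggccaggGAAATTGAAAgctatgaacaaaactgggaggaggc

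The 65 bases of Mndal and Ifi203 were identical. In the best local alignment of the 300-base windows, gaps not counted, Mndal and Ifi203 shared 282 of 289 aligned bases (97.6%). Mndal shared 179 of 247 (72.5%) with Ifi211 and 105 of 147 (71.4%) with Ifi205, where only part of the window was aligned. Shares of similar size came from shorter alignments with Ifi207 (92 of 132, 69.7%) and Aim2 (32 of 46, 69.6%). The core was found in 9 of the 12 family genes that had a window (75%) and in 10 of their 14 windows (71.4%). By comparison, 1131 of all 32851 RefSeq windows of the same length held it (3.44%), as did 16 of 36 windows of listed interferon-stimulated genes (44.4%). Aim2, Ifi209 and Ifi202b had no match in their windows, and Ifi204 had no window. In all 9 genes a match stood before the start on the gene's own strand, its first base at positions from -35 (Ifi203) to -134 (Ifi205) relative to the start, and at -36 for Mndal. The 2 bases inside the core were those of Mndal in 7 of the 9 genes and those of Ifi205 in 2. These matches describe letters in the reference and were not tested for use in the cells.

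**Figure D1:**
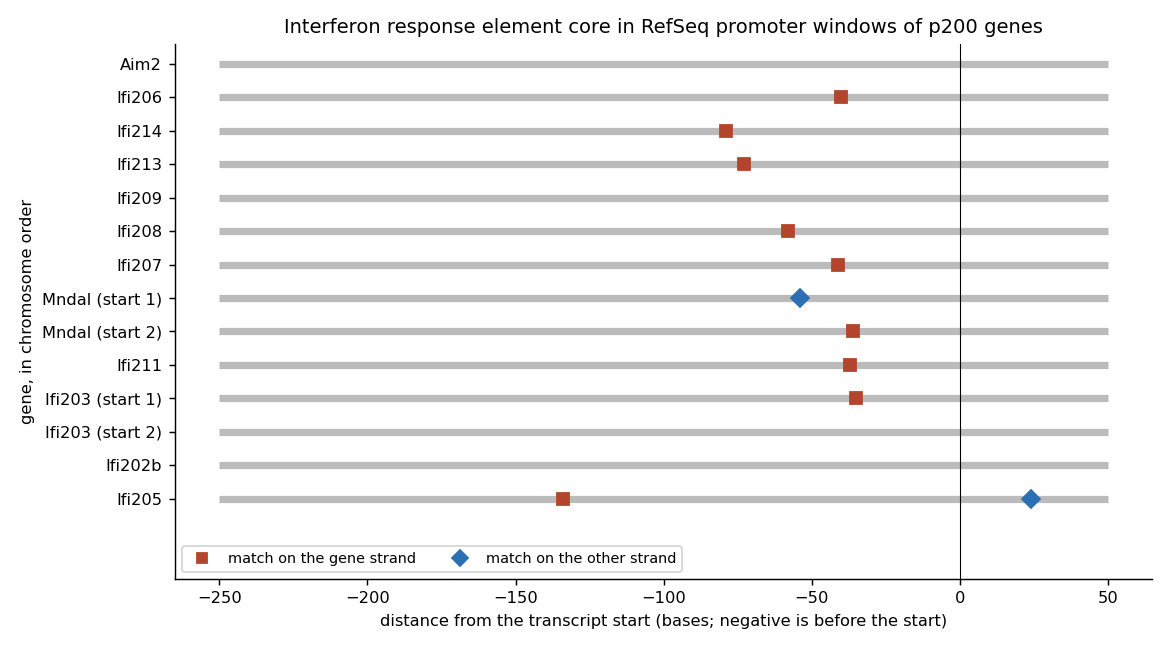
Position of the interferon response element core in the RefSeq promoter windows of the p200 genes. The x axis is the distance from the transcript start in bases, each grey bar is 1 window, squares mark matches on the gene's strand and diamonds matches on the other strand. Matches on the gene's strand lay between -35 and -134 in 9 genes.

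Mndal was low in both macroH2A shRNA lines. Its probe set 1452231_x_at read 132.7 and 155.9 on the control arrays (replicates 1 and 2), 12 and 25.3 on the macroH2A1 arrays and 21.1 and 37.5 on the macroH2A2 arrays, in deposited signal units. All 4 arrays of the macroH2A shRNA lines lay below both control arrays, while the arrays of the macroH2A1 and macroH2A2 shRNA lines overlapped. The suffix _x_at marks a probe set with probes that may match other transcripts, so its values need not be of Mndal alone. The means of the control, macroH2A1 and macroH2A2 arrays were 144 ± 16.4, 18.6 ± 9.4 and 29.3 ± 11.6 (SD, n = 2 each). In a bulk culture, fewer cells with the transcript and less transcript per cell cannot be told apart.

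The second Mndal probe set, 1426906_at, was likewise low in both macroH2A shRNA lines. It read 109.5 and 123.7 on the control arrays, 1.9 and 14.3 on the macroH2A1 arrays and 15.5 and 30 on the macroH2A2 arrays. Its group means were 117 ± 10.0, 8.10 ± 8.77 and 22.8 ± 10.3 (SD, n = 2 each). Here the arrays of the 3 lines did not overlap. The signals of the Mndal probe sets had a Pearson r of 0.993 over the 6 arrays, and both were designed from 1 GenBank record, so they are not independent of each other. The lowest readings, below about the filter level of 10.4 signal units, have little precision because no detection calls were used.

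On the log2(signal + 16) scale, 1452231_x_at differed by -2.23 (SE 0.28) between the macroH2A1 shRNA line and the control line. This is 4.70-fold on that scale and 7.74-fold as a ratio of mean signals. For the macroH2A2 shRNA line the difference was -1.84 (SE 0.28), 3.59-fold on that scale and 4.92-fold by the means. For 1426906_at the differences were -2.51 and -1.80 (SE 0.32 for both), and the ratio of mean signals for macroH2A2 shRNA was 5.13-fold. No ratio is given for macroH2A1 shRNA, whose mean of 8.10 was under the filter level, so that the -2.51 is approximate. The offset of 16 sets much of the size: with an offset of 1 the macroH2A1 difference of 1426906_at was -4.14, and with an offset of 64 it was -1.33. Both probe sets stayed lower than the control in both lines when any 1 array was left out, with differences from -2.89 to -1.53.

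Replicate 2 read higher than replicate 1 for both Mndal probe sets in all 3 lines. The gap was 0.21, 0.56 and 0.53 for 1452231_x_at in the control, macroH2A1 shRNA and macroH2A2 shRNA lines, and 0.15, 0.76 and 0.55 for 1426906_at, in log2 units. Across all tested probe sets the replicate differences of the lines were also correlated, and the replicate number was therefore used as a block in a second fit. Within replicate 1 the macroH2A1 and macroH2A2 differences from the control were -2.41 and -2 for 1452231_x_at, and within replicate 2 they were -2.06 and -1.68. For 1426906_at they were -2.81 and -1.99 within replicate 1 and -2.20 and -1.60 within replicate 2.

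**Figure D2:**
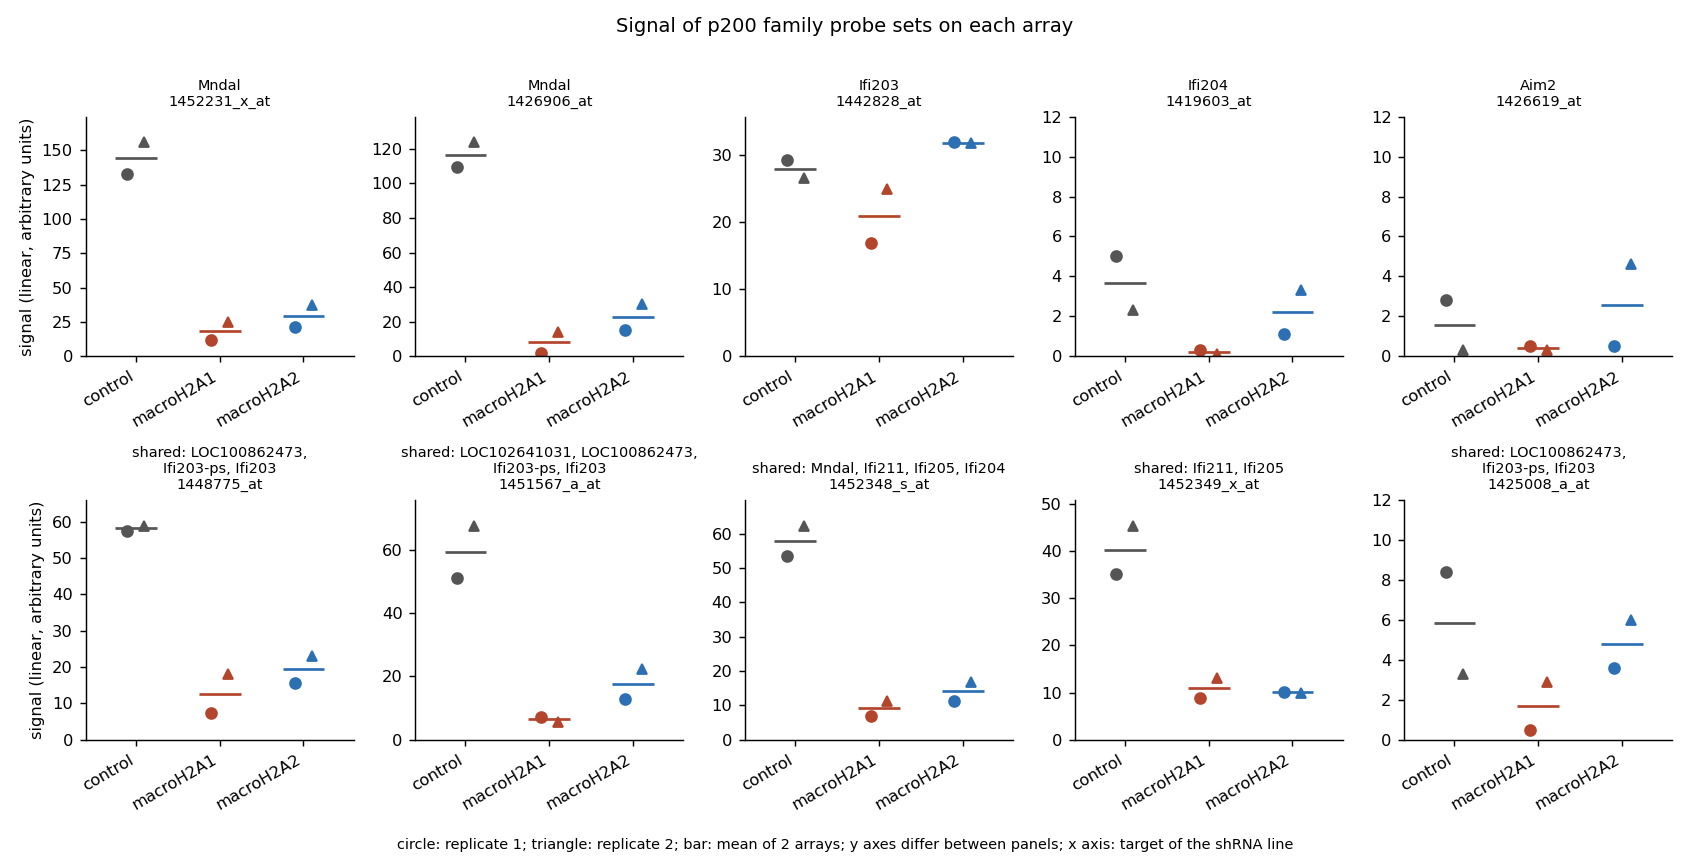
Deposited signal of the p200 probe sets in each array. The y axis is signal intensity, on axes that differ between panels, colours mark the 3 lines, each point is 1 array and bars are means of 2. For Mndal probe set 1452231_x_at the control values were 132.7 and 155.9 and all others between 12 and 37.5, whereas for the probe set of Ifi203 alone all arrays lay between 16.9 and 31.9.

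Ifi203, whose protein is a close relative of MNDAL with a pyrin and a HIN domain, had 1 probe set of its own, with small differences between the lines. This probe set, 1442828_at, read 29.2 and 26.6 on the control arrays, 16.9 and 25 on the macroH2A1 arrays and 31.9 and 31.8 on the macroH2A2 arrays. The macroH2A1 arrays were below and the macroH2A2 arrays above the control arrays. The differences from the control were -0.26 and 0.12 (SE 0.23 for both) on the log2 scale. The first was -0.10 without macroH2A1 replicate 1 and -0.42 without macroH2A1 replicate 2. Its signal had an r of 0.366 with 1452231_x_at and 0.473 with 1426906_at over the 6 arrays, whose values share arrays and scaling. The sources used here do not give which part of the transcript the probes cover.

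Ifi204, which encodes a sensor of viral DNA and a cofactor of differentiation, was near the floor of the array. Its probe set 1419603_at read 5.0 and 2.3 on the control arrays, 0.3 and 0.1 on the macroH2A1 arrays and 1.1 and 3.3 on the macroH2A2 arrays. Aim2, the inflammasome receptor, was equally dim. Its probe set 1426619_at read 2.8 and 0.3, then 0.5 and 0.3, and 0.5 and 4.6 in the same order of lines. Neither passed the filter of a mean signal of 10.4, so 3 of the 5 member probe sets were tested, and no difference between lines could be measured for Ifi204 or Aim2 with these probe sets.

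The shared probe sets resembled Mndal rather than the probe set of Ifi203 alone. Of the 5, 4 passed the filter, and their signals correlated with the Mndal probe sets at r between 0.935 and 0.998 but with 1442828_at at r between 0.179 and 0.456 (6 arrays, all on the same scaling). None of them can be assigned to 1 gene. The first, 1448775_at, is annotated to Ifi203, its pseudogene Ifi203-ps and an uncharacterised locus. It read 57.6 and 58.9 on the control arrays, 7.3 and 18.0 on the macroH2A1 arrays and 15.6 and 23.2 on the macroH2A2 arrays. Its differences from the control were -1.40 and -1.08 (SE 0.27 for both). Ifi203 is thus among the genes of this shared probe set, which was low in both macroH2A shRNA lines. Its own probe set had values closer to the control, and the shared signal cannot be assigned to Ifi203.

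A second probe set of this kind, 1451567_a_at, is annotated to Ifi203, Ifi203-ps and further loci. It read 50.9 and 67.5 on the control arrays, 7.3 and 5.7 on the macroH2A1 arrays and 13 and 22.2 on the macroH2A2 arrays, with differences of -1.73 and -1.17 (SE 0.26 for both). Again all 4 arrays of the macroH2A shRNA lines were below the control arrays. Both macroH2A1 readings were under the filter level of 10.4, so that difference is approximate and the order of the macroH2A shRNA lines is not read. For 1452348_s_at, annotated to Mndal, Ifi211, Ifi205 and Ifi204, the signals were 53.5 and 62.3, then 6.9 and 11.4, and 11.4 and 16.9. Its differences were -1.56 and -1.30 (SE 0.24 for both), the first again against a mean under the filter level (9.15). Because Mndal is among its genes, it cannot be read as a measure of Ifi204 or Ifi205.

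Ifi205 and Ifi211, close relatives of Ifi204, were measured without Mndal by 1 probe set, 1452349_x_at. It read 35.1 and 45.3 on the control arrays, 8.8 and 13.1 on the macroH2A1 arrays and 10.1 and 10.0 on the macroH2A2 arrays. Its differences from the control were -1.06 and -1.10 (SE 0.24 for both). Both macroH2A shRNA lines read near the filter level, so these differences are approximate and the order of the macroH2A shRNA lines is not read. As with 1452231_x_at of Mndal, its suffix marks probes that may also match other transcripts. The last shared probe set, 1425008_a_at, was dim, with signals from 0.5 to 8.4. The 7 probe sets of other p200 genes, 6 of them with the single symbols Ifi202b, Ifi207, Ifi209 or Ifi213, did not exceed 11.9 on any array and 0 were tested.

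**Figure D3:**
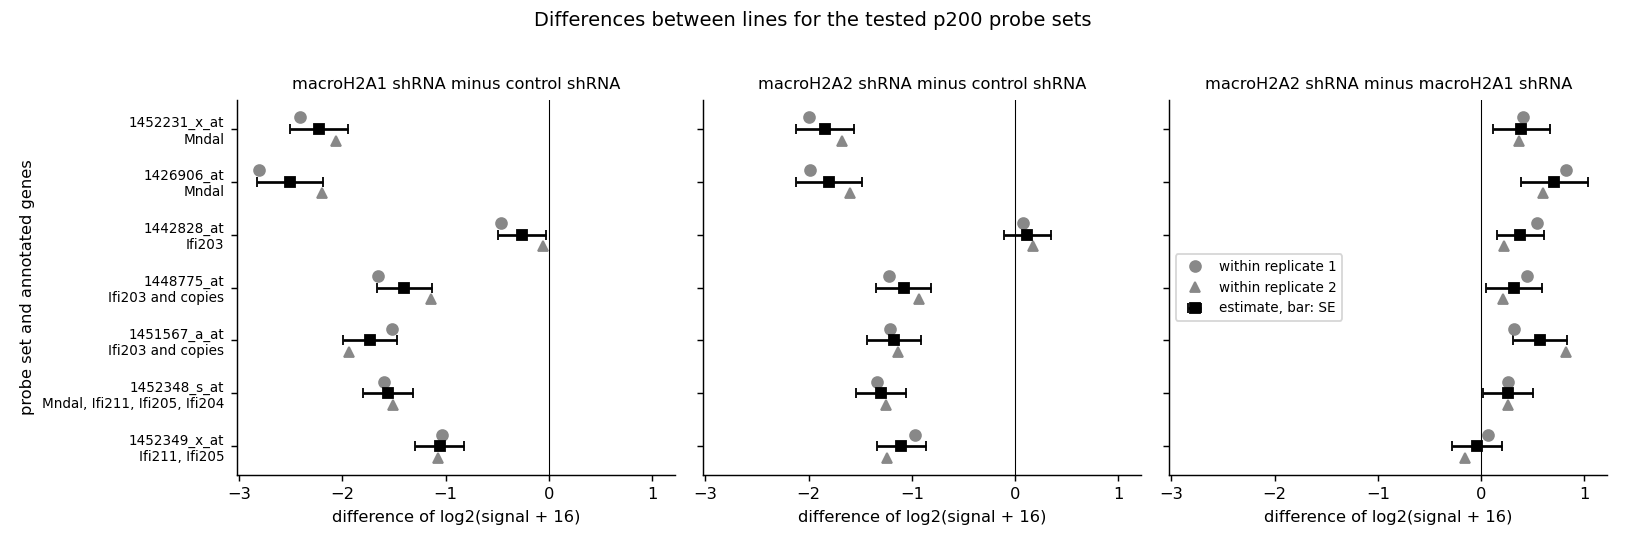
Differences between lines for the 7 tested p200 probe sets. The x axis is the difference of log2(signal + 16), squares are the estimates with their standard errors, and circles and triangles are the differences within replicate 1 and replicate 2. The probe sets of Mndal and the shared ones lie left of 0 against the control, between -2.51 and -1.06, and the probe set of Ifi203 alone lies at -0.26 and 0.12.

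As background to these values, limma called 0 of the 27025 tested probe sets in either macroH2A line against the control at an adjusted p of 0.05 (0% for both). At an unadjusted p under 0.05 there were 1189 for macroH2A1 and 1075 for macroH2A2. With the replicate number as a block limma called 52 probe sets for macroH2A1 shRNA (0.192%) and 39 for macroH2A2 shRNA (0.144%). All arrays were below the control arrays for 3 of the 3 tested member probe sets with macroH2A1 shRNA, where 14.9% of all tested probe sets showed this, and for 2 of 3 with macroH2A2 shRNA, where 16.2% did. The members were selected on these contrasts, so nothing is read from these counts.

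The macroH2A2 shRNA line against the macroH2A1 shRNA line was not the comparison used to choose the members, and it was tested. The choice used the arrays of both lines against the control, so the test is not independent of it. No member probe set passed. For 1426906_at of Mndal the macroH2A2 shRNA line was 0.71 higher (SE 0.32, 95% interval -0.03 to 1.44; limma over all probe sets, adjusted p = 1), with non-overlapping arrays. With the block the limma adjusted p was 0.536. The macroH2A1 mean of 8.10 was under the filter level of 10.4, so this difference is approximate and the order of the lines is not read. With an offset of 1 the difference was 1.76, and with an offset of 64 it was 0.27. The interval leaves room for equal levels and for a difference of 1.44 log2 units, and leaving out replicate 1 or replicate 2 of the macroH2A1 shRNA line moved the value to 0.33 or 1.09. For 1452231_x_at the difference was 0.39 (SE 0.28, 95% interval -0.26 to 1.04; limma adjusted p = 1, and 0.819 with the block). For 1442828_at of Ifi203 it was 0.38 (SE 0.23, 95% interval -0.16 to 0.92; limma adjusted p = 1, and 0.866 with the block). Leaving out replicate 1 or replicate 2 of the macroH2A1 shRNA line moved these values too, to 0.11 or 0.67 for 1452231_x_at and to 0.22 or 0.54 for Ifi203. These p-values rest on the spread between the 2 arrays of a line, pooled over the 3 lines with information from all tested probe sets. The number of arrays limits their precision. Each target had 1 line with 1 hairpin, so effects of the line or hairpin cannot be told apart from those of the target.

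The shared probe sets gave 0.57 (95% interval -0.03 to 1.16) for 1451567_a_at, 0.32 (-0.30 to 0.94) for 1448775_at, 0.26 (-0.30 to 0.83) for 1452348_s_at and -0.04 (-0.61 to 0.52) for 1452349_x_at. None passed the test either. Over all probe sets limma called 0 of 27025 between these lines (0%), 739 had an unadjusted p under 0.05, and with the block limma called 1 (0.0037%). That probe set is of Macroh2a1 itself. The macroH2A2 arrays were both above the macroH2A1 arrays for 2 of the 3 tested member probe sets, against 13.3% of all tested ones. These 2 were 1442828_at and 1426906_at, the latter with a macroH2A1 mean under the filter level. For the other Mndal probe set, 1452231_x_at, the arrays overlapped. Arrays of both lines took part in choosing the members, so nothing is read from this count.

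The targeted genes check the labels. Macroh2a1 read 1212.7 and 1262.4 on the control arrays, 444.2 and 319.1 on the macroH2A1 arrays and 1271.2 and 1170.5 on the macroH2A2 arrays (probe set 1424572_a_at). It was thus low in the line labelled for it and near the control in the other. Macroh2a2 (1426363_x_at) read 6.1 and 7.5 on the control arrays, 3.5 and 2.0 on the macroH2A1 arrays and 11.9 and 8.3 on the macroH2A2 arrays. It was thus not low in the line labelled for it, where both arrays read above the control arrays. Its mean over all arrays, 6.55, was below the filter, so these dim readings do not check the macroH2A2 shRNA label. Median signals ranged from 15.1 to 24.6 between arrays, and log2 signals of array pairs correlated at 0.978 to 0.990.

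The interferon pathway around the family was described by lists. The lists were chosen with earlier results of these data known, and Mndal, itself an interferon target, was chosen in the comparisons with the control. The counts and p-values of the lists against the control are therefore a description and not independent support. Of 40 interferon-stimulated genes, 36 were tested, and most were lower in both macroH2A shRNA lines: 34 of 36 in the macroH2A1 line with a median difference of -0.63, and 35 of 36 in the macroH2A2 line with a median of -0.62. Over all tested probe sets 55.6% and 55.7% were lower, with medians of -0.03. Neither line had a call without the block. With the block, 4 genes fell in each line. Oas1a, which makes the activator of RNase L, fell by 1.63 (SE 0.17; limma adjusted p with the block 0.00282, without it 0.123) with macroH2A1 shRNA and by 1.06 (SE 0.17; with the block 0.0332, without it 0.565) with macroH2A2 shRNA. Xaf1, a pro-apoptotic XIAP-binding protein, fell by 1.22 with macroH2A1 shRNA and fell by 1.26 with macroH2A2 shRNA (SE 0.21; 0.0378 and 0.0339 with the block, 0.459 and 0.634 without).

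Rtp4, a receptor transporter and interferon target, also fell in both lines with the block: it fell by 1.29 with macroH2A1 shRNA and fell by 1.36 with macroH2A2 shRNA (SE 0.24; limma adjusted p 0.0244 and 0.0242, and 0.514 and 0.646 without it). Usp18, which trims ISG15 from proteins and restrains the interferon receptor, fell by 1.80 with macroH2A1 shRNA (SE 0.30; 0.0272 with the block, 0.423 without). Ifit1, which binds viral RNA, fell by 1.36 with macroH2A2 shRNA (SE 0.27; 0.0306 with the block, 0.702 without). Bst2, the antiviral tether, had -0.75 with macroH2A2 shRNA and did not pass in either fit. Gbp2 was above the control in both lines and Oasl1 with macroH2A1 shRNA, without passing. Between the macroH2A2 and macroH2A1 shRNA lines the list's median was 0.01, with 17 of 36 lower and 0 calls in both limma fits. Of the 6 block fits that leave out 1 array, Oas1a was called in 6, Usp18 in 5 and Xaf1 and Rtp4 in 4 each for macroH2A1 shRNA, with adjusted p up to 0.22. For macroH2A2 shRNA Ifit1, Xaf1 and Rtp4 were called in 5 and Oas1a in 4. None of these 4 was called there without control replicate 1, where their adjusted p rose to between 0.216 and 0.336 and the whole array had 3 calls. The comparisons with the control share the 2 control arrays, so their similarity is not a result.

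The list of interferon receptors, kinases, STATs and IRFs had 18 of 20 genes tested. Of these, 15 were lower with macroH2A1 shRNA (median -0.17) and 16 with macroH2A2 shRNA (median -0.13), with 0 calls in both limma fits. Among the genes with the smallest p were feedback and relay genes. Irf7, the amplifier of type I interferon, had -1.01 (SE 0.32) and -0.74. Socs3, an inhibitor of JAK kinases, had -0.74 and -0.78 (SE 0.19 for both), and Irf9, a DNA-binding factor of the interferon response, had -0.70 and -0.52 (SE 0.20 for both). Between the macroH2A shRNA lines 9 of 18 were lower, with a median of 0.01.

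Genes that act with p200 proteins were described next. Of the 12 Aim2 inflammasome genes, 7 were tested, with 6 lower with macroH2A1 shRNA (median -0.22) and 3 lower with macroH2A2 shRNA (median 0.01). All 7 were higher in the macroH2A2 than in the macroH2A1 shRNA line, with a median of 0.21, and none passed. The values ran from 0.01 for Casp8 (SE 0.15) to 0.44 for Casp4 (SE 0.36). Over all tested probe sets 51.1% were lower in this comparison, with a median of 0. Casp4, the caspase that senses lipopolysaccharide, had -0.73 (SE 0.36) with macroH2A1 shRNA, and Pycard, the adaptor of AIM2, had 0.28 with macroH2A2 shRNA. Of 21 genes of cytosolic DNA sensing, 16 were tested, with 10 and 9 lower and medians of -0.07 and -0.05. Of 18 reported partners of p200 proteins, 16 were tested, with 8 and 9 lower and medians of 0.00 and -0.02. These 3 lists had 0 calls in both limma fits of each comparison.

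**Figure D4:**
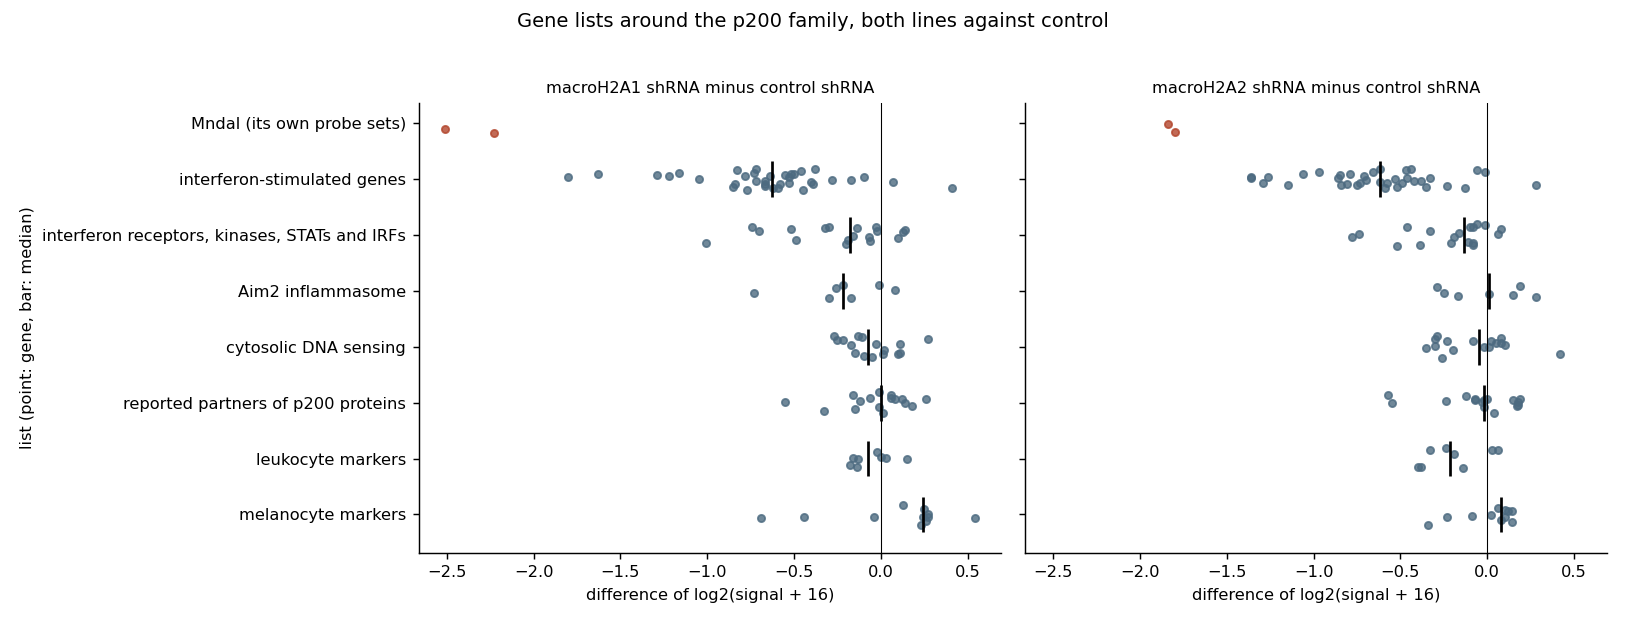
Differences from the control line for the genes of each list. The x axis is the difference of log2(signal + 16), the left panel is macroH2A1 shRNA and the right panel macroH2A2 shRNA, each point is 1 gene (in the top row, a Mndal probe set) and the bar is the list's median. The interferon-stimulated genes lie mostly left of 0 with medians of -0.63 and -0.62, and the medians of DNA sensing and of p200 partners lie between -0.07 and 0.00.

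The profile of Mndal over the 6 arrays was also compared with 22700 other probe sets. The 8 genes most like 1452231_x_at, by Pearson r of log2 values over the 6 arrays, were Tpst1 (0.997), Dkk3 (0.994), Hddc3 (0.993), Dhx58 (0.990), Cgnl1 (0.990), Fbxl16 (0.987), Car8 (0.986) and Irgm1 (0.985). All of them were highest in the control line, which follows from picking them by their r to Mndal, but they differed in size. Tpst1, a tyrosylprotein sulfotransferase, read 275.1 and 284.7 on the control arrays, 218.0 and 228.1 on the macroH2A1 arrays and 227.8 and 241.7 on the macroH2A2 arrays. Car8, a carbonic anhydrase-related protein, had a wider gap, with 162.4 and 180.9 in the control, 58.4 and 59.5 with macroH2A1 shRNA and 70.0 and 85.8 with macroH2A2 shRNA. Irgm1, an interferon-induced GTPase, had 374.2 and 387.3, then 218.6 and 248.1, and 264.7 and 266.5. Dhx58, which encodes the RIG-I relative LGP2, was dim, at 15.7 and 17.2 in the control line and 8.7 to 11.4 on the other arrays.

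Of the compared probe sets 58 had an r of at least 0.95 (0.256%), and the median r was 0.0332. Among the 36 interferon-stimulated genes the median r was 0.874, and 8 of them (22.2%) reached 0.95. With 6 arrays that share scaling and 3 line means, such correlations are a description of these arrays. Mndal was chosen for being low in both macroH2A shRNA lines, and a gene lower in both lines tends to have a high r with it. The shares therefore repeat the differences from the control already given for the list, and nothing more is read from them.

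**Figure D5:**
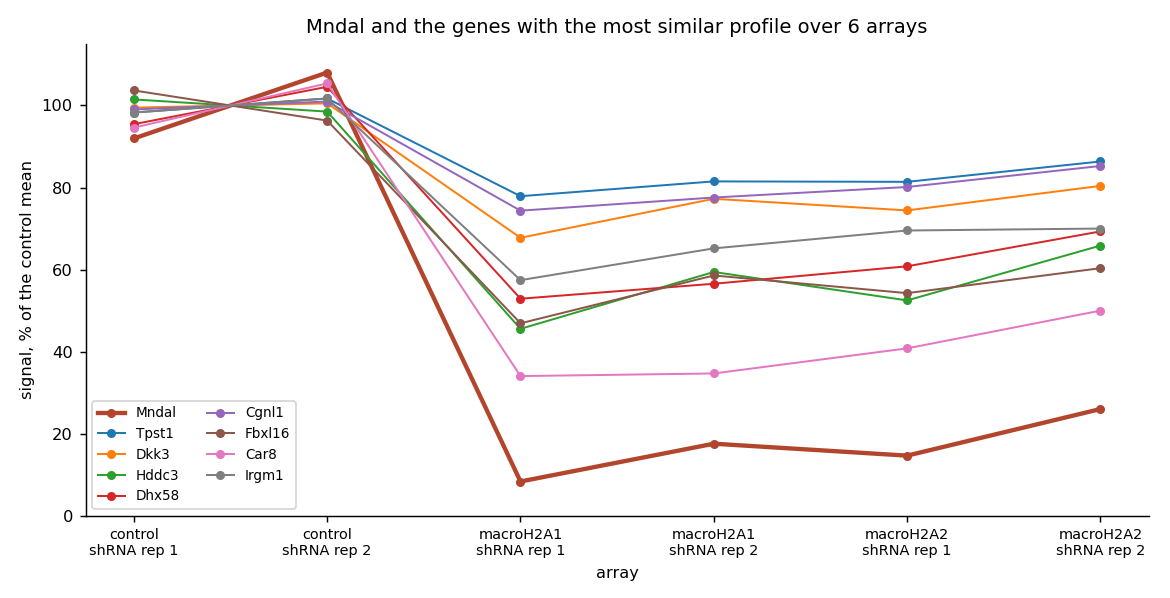
Profiles of Mndal (probe set 1452231_x_at) and of the 8 genes most like it over the 6 arrays. The y axis is the signal as a percent of the gene's control mean, the x axis lists the arrays by line, and lines join the values of 1 gene only. Mndal spans the widest range, and Tpst1, with the highest r of 0.997, a narrow one.

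Markers of cell types were read on the same arrays. The melanocyte markers were bright, as for a melanoma line, with a mean signal of 8180 for Dct, an enzyme of melanin synthesis. The summed signal of 11 melanocyte markers was 38309.8 to 38417.4 in the control line, 40173.1 to 47398.9 in the macroH2A1 shRNA line and 37303.1 to 42406.0 in the macroH2A2 shRNA line. Their medians were 0.24 and 0.08 above the control, with 3 of 11 lower in each line. Leukocytes express p200 genes strongly. Of 15 leukocyte markers, 8 passed the filter. The brightest were Csf1r, Coro1a and Fcer1g, with means of 34.0, 30.8 and 29.1, above the 26.9 of the probe set of Ifi203 alone. These are each gene's brightest probe set. Others had means of 11.4 and 2.62 for Csf1r and of 16.8 and 0.767 for Coro1a, so the levels depend on the probe set. Ptprc, which encodes the leukocyte antigen CD45, did not exceed 3.3 on any array.

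The summed signal of 15 leukocyte markers was 210.6 to 257.5 in the control line, 213.9 to 226.4 with macroH2A1 shRNA and 166.6 to 185.5 with macroH2A2 shRNA. It was thus lower than the control on both macroH2A2 arrays and within the control's range on both macroH2A1 arrays. The sum includes markers under the filter level, so this gap is not read as a drop in leukocyte transcripts. Of the leukocyte markers, 8 were tested, with 5 and 6 lower, medians of -0.08 and -0.22 and 0 calls in both limma fits. The 8 fibroblast markers summed to 175.6 to 286.7, 205.1 to 207.3 and 191.3 to 214.9 in the 3 lines, and the 5 endothelial markers to 25.4 to 51.6, 33.3 to 37.2 and 30.6 to 30.8. Both sums lay within the control's range in the macroH2A shRNA lines. Of the fibroblast markers 3 were tested, with 1 lower in each line, and of the endothelial markers 1, Kdr. The lower fibroblast marker was Pdgfra, a receptor for platelet-derived growth factor, which read 82.9 and 52.4 on the control arrays, 32.5 and 24.4 on the macroH2A1 arrays and 25.6 and 25.2 on the macroH2A2 arrays. Its differences were -0.89 and -0.99 (SE 0.25 for both; limma adjusted p 0.88 and 0.929, and 0.133 and 0.105 with the block), so it was lower beside Mndal on all 4 arrays without passing. The part of these cell types in the Mndal values was not tested.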

How the data were processed

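RNA of B16-F1 lines (150 ng a sample) was hybridised to 6 one-colour Affymetrix arrays, 2 for each of 3 lines, grouped by the sample labels, which call the 2 arrays of a line biological replicates. The deposited values are linear signal intensities, 1 per probe set; per the submitters' processing notes the authors used MAS5, with version and genome build not given in the sources used here. A 2% trimmed mean was 150 on every array, so a change in total signal between lines is not visible. Genes were named from the platform annotation.

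Log2(signal + 16) was tested for 27025 of 45037 probe sets with a mean signal of at least 10.4 (the 40th percentile). One fit of all arrays used limma 3.58.1 in R 4.3.3 (lmFit, eBayes with trend) with 3 group means, 3 residual and 4.90 prior degrees of freedom, and Benjamini-Hochberg adjustment over all probe sets with a threshold of 0.05. It was also run on simulated data with independent noise and no replicate pairing, on which the block fit was not run. Replicate differences (1 minus 2) correlated between the lines at 0.576, 0.372 and 0.415, so the numbers were taken as pairs. This pairing comes from the data, since the labels do not say what a number shares, and a fit with the replicate block (2 residual and 9.09 prior degrees of freedom) is given beside results it changes. Alternatives were pseudocounts of 1 and 64, other filters, quantile normalization, median centring, fits of only the 2 groups compared, and each array left out.

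Members and gene lists were chosen with earlier results of these data known. Named were all member probe sets, the targeted genes, up to 4 genes a list with the smallest limma p (fewer are printed) from each gene's brightest probe set, block calls, and the 8 genes with the highest r to Mndal. Gbp2, Oasl1, Kdr, Dct, Ptprc and Csf1r were named after their values were seen. Promoter windows are RefSeq's, from 250 bases before to 50 bases after a start, aligned locally in pairs with Biopython 1.88.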

Additional observations from a re-analysis of the deposited data

How the results depend on the processing

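Without the replicate block, limma called 0 probe sets in each of the 3 comparisons under every alternative run, leave-one-out fits included. With the replicate block it called 52 (macroH2A1 shRNA against control), 39 (macroH2A2 shRNA against control) and 1 (macroH2A2 against macroH2A1 shRNA). Leaving out 1 array with the block gave 26 to 515, 3 to 804 and 3 to 204 calls, against 0 for each array left out without it. For macroH2A1 against control, the counts were 34 and 50 without control replicate 1 or 2, 67 and 26 without macroH2A1 replicate 1 or 2, and 515 and 514 without macroH2A2 replicate 1 or 2. For macroH2A2 against control, in the same order, they were 3, 96, 138, 133, 114 and 804, and for macroH2A2 against macroH2A1 5, 5, 6, 3, 106 and 204. The cause was not tested. The Mndal probe sets kept their sign against the control in all 19 settings, from -4.14 to -1.33 for 1426906_at and -2.97 to -1.34 for 1452231_x_at with macroH2A1 shRNA. Between the macroH2A shRNA lines their adjusted p stayed between 0.350 and 1. Signal near background limits Ifi204, Aim2 and the other p200 genes.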

Other observations

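The genes that flank the p200 cluster were read in the RefSeq gene order, 15 on each side. Many of them are olfactory receptors and genes of the pentraxin and Fc receptor families. Of these 30 genes, 9 had a probe set of their own and 1 passed the filter. This gene, Ackr1, a decoy receptor for chemokines, read 24.5 and 16.3 on the control arrays, 23.9 and 16.8 on the macroH2A1 arrays and 30.7 and 25.2 on the macroH2A2 arrays. Its log2 differences from the control were 0.00 and 0.28. No other flanking gene was tested.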
